A study of Mus musculus with 6 samples.

Results

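Cdkn1a, Mdm2, Ccng1, Trp53inp1, Perp, Plk2, Pmaip1, Eda2r, Tigar and Bax are 10 genes known as transcriptional targets of the tumour suppressor p53. They were taken by gene symbol from a deposited table of 25170 gene symbols, and all 10 were found, with no value at 0. RNA-seq was made from E14 cells, a standard line of mouse embryonic stem cells (ESCs) grown in serum with leukemia inhibitory factor (LIF, the cytokine that keeps mouse ESCs self-renewing). The 6 libraries are 2 of Hnrnpf knockout cells after 4 days without LIF, 1 of wild type cells after 4 days without LIF, 2 of knockout cells with LIF and 1 of wild type cells with LIF. Hnrnpf encodes an RNA-binding protein that takes part in splicing, and the study asked how its loss changes expression in pluripotent and in differentiating cells. The labels give neither the deleted part of Hnrnpf nor whether knockout numbers 1 and 2 are clones, nor whether libraries came from separate cultures, so the tests only weigh differences against the scatter among these libraries, and that scatter may be technical. Values are FPKM (fragments per kilobase of transcript, scaled to the mapped fragments of the library), a level per length, so levels of different genes may be compared.

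p53 is a transcription factor that is kept low by the ubiquitin ligase Mdm2 and is stabilised by DNA damage and other stress. It binds a pair of half-sites in its target genes and raises transcripts that stop the cell cycle, start apoptosis, change metabolism or act back on p53 itself. Mouse ESCs are known to hold abundant p53 transcript, and active p53 is known to favour their differentiation.

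Hnrnpf stood at 95.2 and 27.8 FPKM in the knockout libraries after LIF removal, against 335 in the wild type library, and at 98.7 and 37.1 in the knockout libraries with LIF, against 342. Transcript therefore remained in each knockout library, and library 2 held less of it than library 1 in both media. Sums of FPKM lay between 456155 and 556318 per library, and the number of reads behind a value is unknown. The summed level of 7 ESC markers was 1140 to 1470 FPKM after LIF removal and 2010 to 2360 FPKM with LIF, and all 7 fell on LIF removal.

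The clearest pattern was a high level in knockout cells without LIF. In 8 of the 10 genes, Cdkn1a, Mdm2, Ccng1, Trp53inp1, Perp, Plk2, Pmaip1 and Eda2r, both knockout libraries after LIF removal lay above the other 4 libraries, which was true of 12.5% of the 11785 genes tested. This arrangement was picked out after the values were seen, and the 10 genes were chosen with earlier results of these data known. The count beside that share is therefore a description and not a test. Tigar and Bax did not follow it. Perp, Plk2 and Ccng1 were also higher in the wild type library without LIF than in the one with LIF. Cdkn1a, Mdm2, Pmaip1 and Eda2r stood nearly level between those libraries.

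**Figure D1:**
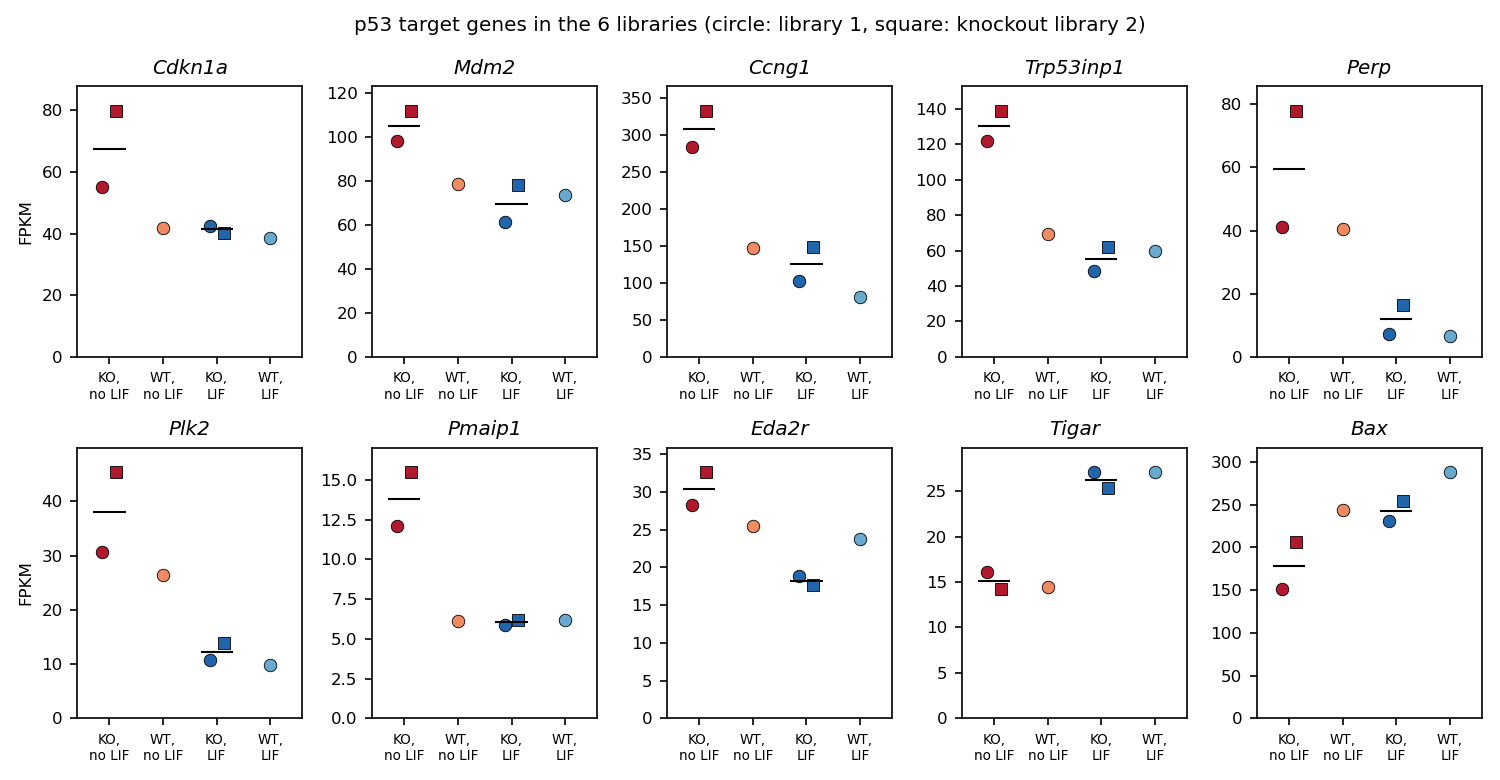
FPKM of each gene (vertical axis, from 0, with its own scale per panel) in knockout (KO) and wild type (WT) libraries without and with LIF; circles are library 1, squares knockout library 2, and the short line is the mean of a knockout pair. In 8 of the 10 panels both knockout points without LIF lie above the 4 other points, with Tigar and Bax as the exceptions.

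The promoter windows searched here differed in how closely they match the site that p53 binds, and the windows with the closest matches are shown for that reason. RefSeq promoter windows (GRCm38.p6, from 250 bases before to 50 after a gene's start) were present for 7 of the 10 genes, in 8 windows. They were searched for the p53 consensus site, a pair of half-sites of 10 bases with at most 13 bases between them and with the C and G of each half-site core required. The consensus reads the same on both strands, so a single search covers both. The 250 bases before the start are printed 5′ to 3′ on the gene's strand, for Cdkn1a chr17:29090729-29090978 (plus strand), for Ccng1 chr11:40755287-40755536 (minus strand) and for Bax chr7:45466899-45467148 (minus strand), and capitals mark the half-sites.
Cdkn1a: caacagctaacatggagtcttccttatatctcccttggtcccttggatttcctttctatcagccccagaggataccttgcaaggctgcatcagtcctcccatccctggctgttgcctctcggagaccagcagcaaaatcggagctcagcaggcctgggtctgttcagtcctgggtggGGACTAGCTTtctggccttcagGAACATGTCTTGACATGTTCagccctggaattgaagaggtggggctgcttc
Ccng1: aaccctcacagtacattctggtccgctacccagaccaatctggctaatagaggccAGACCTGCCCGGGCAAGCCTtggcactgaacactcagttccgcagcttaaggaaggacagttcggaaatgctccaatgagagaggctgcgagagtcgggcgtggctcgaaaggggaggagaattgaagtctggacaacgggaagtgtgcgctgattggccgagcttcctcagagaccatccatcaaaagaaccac
Bax: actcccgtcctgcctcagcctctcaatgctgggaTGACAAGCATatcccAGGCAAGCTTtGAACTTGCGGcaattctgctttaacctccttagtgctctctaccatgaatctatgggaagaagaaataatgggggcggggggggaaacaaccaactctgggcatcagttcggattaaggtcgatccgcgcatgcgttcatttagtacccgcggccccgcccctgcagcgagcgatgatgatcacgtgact
The window at the upstream start of Cdkn1a held a match without a mismatch, with 12 bases between its half-sites. Its second half-site is joined directly to a further one, a pair with 1 mismatch that begins 51 bases before the start. Ccng1 had 1 mismatch, with no base between the half-sites, beginning 195 bases before the start. Bax had 2 mismatches, in overlapping pairs that share their middle half-site. Of all 32851 windows, 0.0731% held a match with no mismatch, 0.627% one with at most 1 and 4.09% one with at most 2. The best match had 3 mismatches in Tigar, a number that 15.6% of windows reach, and 4 in Mdm2, 5 in Plk2 and in the downstream window of Cdkn1a, and 6 in Eda2r. Matches with at most 4, 5 and 6 mismatches were found in 40.4%, 68.7% and 86.7% of all windows, so such matches are common. A match is a description of these letters, and binding was not measured here. Bases outside the windows, such as introns, were not searched, so the mismatches do not rank the genes by how well p53 binds them.

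Mdm2 (chromosome 10, 117688875 to 117710758, GRCm38, the assembly that mm10 denotes) and Ccng1 act back on p53. Mdm2 is the ligase that marks p53 for destruction, and its own transcription is raised by p53. Mdm2 was at 98.3 and 112 FPKM in knockout cells without LIF and 78.7 in wild type cells without LIF, and at 61.2 and 78.1 in knockout cells with LIF and 73.6 in wild type cells with LIF. The knockout libraries without LIF were the 2 highest, and with LIF the wild type value lay between the knockout values. The mean of the knockout pair was 105 ± 9.85 FPKM without LIF and 69.7 ± 11.9 with LIF (SD, n = 2 each).

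Ccng1 (chromosome 11, 40748552 to 40755311), cyclin G1, recruits a phosphatase to Mdm2. It was at 284 and 333 FPKM in knockout cells without LIF and 147 in wild type cells without LIF, and at 103 and 148 in knockout cells with LIF and 81.1 in wild type cells with LIF. Ccng1 thus had its highest values in knockout cells without LIF and its lowest in wild type cells with LIF, and knockout library 2 with LIF stood level with the wild type library without it. Knockout cells held 2.09 times the wild type level without LIF and 1.55 times with LIF.

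Cdkn1a and Plk2 act on the cell cycle. Cdkn1a (chromosome 17, 29090976 to 29100727) encodes p21, the inhibitor of cyclin-dependent kinases through which p53 arrests cells. It was at 55.1 and 79.9 FPKM in knockout cells without LIF, against 41.7 in wild type cells without LIF, and at 42.4 and 40.3 in knockout cells with LIF, against 38.5 in wild type cells with LIF. The 3 libraries with LIF and the wild type library without it lay close together, between 38.5 and 42.4 FPKM. The knockout libraries without LIF stood apart from them, and they differed from each other by more than the remaining 4 libraries did.

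Plk2 (chromosome 13, 110395046 to 110400844) is a polo-like kinase that growth factors and stress also induce. It was at 30.7 and 45.4 FPKM in knockout cells without LIF and 26.5 in wild type cells without LIF, and at 10.7 and 13.8 in knockout cells with LIF and 9.88 in wild type cells with LIF. All 3 libraries without LIF were above all 3 with it, and in both media both knockout libraries were above wild type.

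Perp, Pmaip1, Trp53inp1, Eda2r and Bax are tied to cell death. Perp (chromosome 10, 18845020 to 18857073) is a membrane protein of desmosomes that also serves p53-dependent apoptosis, and epithelia express it under p63. Its level was 41.2 and 78.0 FPKM in knockout cells without LIF and 40.4 in wild type cells without LIF, and 7.33 and 16.5 in knockout cells with LIF and 6.74 in wild type cells with LIF. Perp spanned the widest range of the 10 genes, its highest value being 11.6 times its lowest, and its groups were ordered by medium, with knockout library 2 the highest in each. The surface epithelium markers Krt5 and Trp63 (p63) stayed under 0.1 FPKM in every library, and Krt14 reached at most 0.918. The 5 such markers summed to 318 to 371 FPKM without LIF and 257 to 326 with LIF. Nearly all of these sums came from Cdh1 (149 to 255 FPKM over the 6 libraries) and Epcam (103 to 131). Neither Cdh1 nor Epcam was called on LIF removal or between genotypes.

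Pmaip1 (chromosome 18, 66458533 to 66465565), called Noxa, neutralises the survival protein Mcl1. It was at 12.1 and 15.5 FPKM in knockout cells without LIF, against 6.15 in wild type cells without LIF, and at 5.88 and 6.22 in knockout cells with LIF, against 6.20 in wild type cells with LIF. The 4 other libraries were nearly equal, and the mean of the knockout libraries without LIF was 2.24 times the wild type value in that medium.

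Trp53inp1 (chromosome 4, 11156431 to 11174379) encodes a nuclear protein of p53-dependent apoptosis and of autophagy. It was at 122 and 139 FPKM in knockout cells without LIF, against 69.5 in wild type cells without LIF, and at 48.4 and 62.2 in knockout cells with LIF, against 59.7 in wild type cells with LIF. Without LIF the knockout mean was 1.88 times the wild type value, while with LIF the wild type value lay between the knockout values.

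Eda2r (X chromosome, 97333840 to 97377216) is a receptor of the tumour necrosis factor family that binds ectodysplasin A2. It was at 28.2 and 32.6 FPKM in knockout cells without LIF and 25.4 in wild type cells without LIF, and at 18.8 and 17.6 in knockout cells with LIF and 23.7 in wild type cells with LIF. Both knockout libraries were above wild type without LIF and below it with LIF, so the genotypes changed order between media.

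Bax (chromosome 7, 45461697 to 45466898), which forms pores in the mitochondrial membrane, had the highest mean of the 10 genes, 229 FPKM over the 6 libraries. It was at 151 and 206 FPKM in knockout cells without LIF, against 244 in wild type cells without LIF, and at 231 and 254 in knockout cells with LIF, against 288 in wild type cells with LIF. Both knockout libraries were below wild type in each medium, the opposite order to that of Cdkn1a, Ccng1, Perp and Plk2.

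Tigar (chromosome 6, 127085116 to 127109557) is a phosphatase that lowers fructose-2,6-bisphosphate and with it glycolysis. It was at 16.1 and 14.2 FPKM in knockout cells without LIF and 14.4 in wild type cells without LIF, and at 27.1 and 25.4 in knockout cells with LIF and 27.1 in wild type cells with LIF. The 3 libraries without LIF were all below the 3 with it, and the genotypes overlapped in both media. The annotation places other transcripts over Cdkn1a, Bax and Tigar, on the opposite strand for Cdkn1a and Tigar and on the same strand for Bax. The sources used here do not say if strand was used in counting, so reads of such neighbours cannot be told apart from theirs.

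LIF removal over both genotypes, 3 libraries against 3, was tested with limma on log2(FPKM + 1). A gene was called where its p, adjusted by Benjamini-Hochberg over all genes tested, was under 0.05. Of the 10 genes, 5 rose and 1 fell, where 8.73% of all genes tested rose and 12.7% fell. On the log2 scale Perp rose by 2.31 (SE 0.30, adjusted p = 0.00287), Plk2 by 1.47 (SE 0.17, adjusted p = 0.00189) and Ccng1 by 1.16 (SE 0.16, adjusted p = 0.00355). Trp53inp1 rose by 0.89 (SE 0.21, adjusted p = 0.0208) and Eda2r by 0.50 (SE 0.15, adjusted p = 0.0484). Tigar fell by 0.79 (SE 0.11, adjusted p = 0.00375). The threshold was missed by Cdkn1a (0.48, adjusted p = 0.0777), Mdm2 (0.43, 0.0698), Pmaip1 (0.70, 0.0603) and Bax (-0.38, 0.0713). Cdkn1a and Mdm2 passed it with quantile normalization (adjusted p = 0.0494 and 0.0332) and with chromosome-median centring (0.0307 and 0.0455). Pmaip1 and Bax passed it with neither. The median over the 10 genes was 0.60, against -0.03 over all genes tested. In Mdm2, Trp53inp1, Perp, Plk2 and Eda2r all 3 libraries without LIF were above all 3 with LIF, as in 14.9% of genes, and in Tigar all 3 were below, as in 16.8%. The calls of Trp53inp1 and Eda2r were less firm: Trp53inp1 lost it when either knockout library after LIF removal, or knockout library 1 with LIF, was left out, and without a filter on low values (adjusted p up to 0.0632). Eda2r lost it when any 1 of the 4 knockout libraries was left out (adjusted p up to 0.146), and also without a filter (0.0898), without the intensity trend (0.0715) and with chromosome-median centring (0.0925).

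In knockout cells alone the same step gave 6 rises and 1 fall among the 10 genes, where 3.05% of genes rose and 3.88% fell. Perp rose by 2.26 (SE 0.41, adjusted p = 0.0313), Plk2 by 1.54 (SE 0.22, adjusted p = 0.0224), Ccng1 by 1.31 (SE 0.19, adjusted p = 0.0224) and Trp53inp1 by 1.23 (SE 0.16, adjusted p = 0.0193). Pmaip1 rose by 1.06 (SE 0.19, adjusted p = 0.0304) and Eda2r by 0.71 (SE 0.15, adjusted p = 0.0423), and Tigar fell by 0.76 (SE 0.15, adjusted p = 0.0361). Cdkn1a (0.67, adjusted p = 0.0833), Mdm2 (0.60, 0.0736) and Bax (-0.45, 0.142) did not pass. The number of calls depended on which libraries entered. It was 0 without knockout library 2 after LIF removal, where all genes gave 124 calls in place of 816. Of the knockout libraries with LIF, leaving out number 1 gave 2 calls (Ccng1 and Trp53inp1) and leaving out number 2 gave 4 (these and Perp and Plk2), where all genes gave 138 and 539 calls.

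In wild type cells 1 library stands against 1, so no test was made. Perp was higher without LIF by a log2 difference of 2.42 and Plk2 by 1.34, the 2 genes past a difference of 1, as were 3.8% of all genes. Ccng1 was higher by 0.85 and Trp53inp1 by 0.22, and Tigar was lower by 0.87 and Bax by 0.24 (differences of -0.87 and -0.24). Cdkn1a (0.11), Mdm2 (0.09), Eda2r (0.09) and Pmaip1 (-0.01) hardly differed between these libraries. The median over the 10 genes was 0.10 in wild type cells, against 0.88 in knockout cells.

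**Figure D2:**
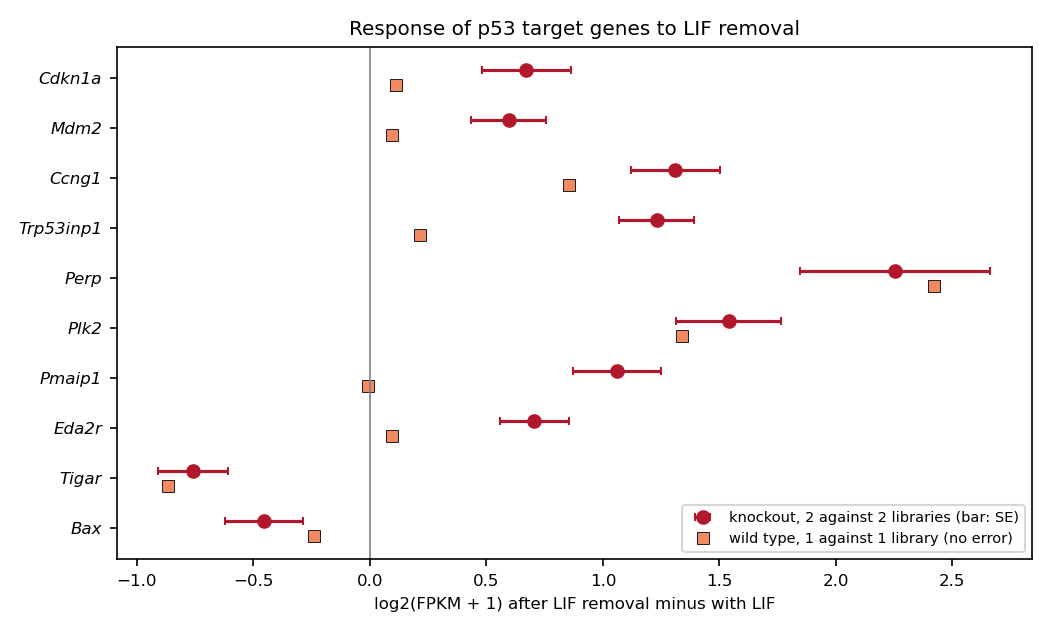
Difference in log2(FPKM + 1) between cells without and with LIF (horizontal axis) for each gene (rows); circles are knockout cells with their SE, 2 libraries against 2, and squares wild type cells, 1 library against 1 and therefore without error. Perp, Plk2 and Tigar have similar values in both genotypes. The knockout value of Trp53inp1, Pmaip1, Eda2r, Cdkn1a, Mdm2 and Ccng1 lies to the right of the wild type value, and that of Bax to the left.

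Whether the responses differ was tested by the difference of the responses themselves. None of the 10 genes passed, nor did any of the 11785 genes (0.0%), with limma. At an unadjusted p under 0.05 there were 2 of the 10, Pmaip1 with a difference of 1.07 (SE 0.32, limma adjusted p = 1.0) and Trp53inp1 with 1.01 (SE 0.28, limma adjusted p = 1.0). Eda2r gave 0.61 (SE 0.26), Cdkn1a 0.56 (SE 0.33), Mdm2 0.50 (SE 0.28) and Ccng1 0.46 (SE 0.33). Plk2 (0.20, SE 0.39), Tigar (0.11, SE 0.26), Perp (-0.16, SE 0.71) and Bax (-0.21, SE 0.29) were within their SE of 0. With 1 wild type library per medium, the wild type response has no error of its own.

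Knockout against wild type cells gave few calls. Within a medium not even Hnrnpf was called, with log2 differences of -2.68 after LIF removal and -2.48 with LIF. After LIF removal none of the 10 genes passed with limma, where 0.0594% of all genes did, and 4 had an unadjusted p under 0.05: Ccng1 (1.06, SE 0.24, adjusted p = 0.149), Pmaip1 (1.04, SE 0.23, adjusted p = 0.147), Trp53inp1 (0.89, SE 0.20, adjusted p = 0.148) and Cdkn1a (0.66, SE 0.23, adjusted p = 0.252). Both knockout libraries were above wild type in 8 of the 10 genes, against 35.7% of all genes, and below it in Bax, against 38.9%. With LIF none passed either, against 0.0424% of genes, and 1 had an unadjusted p under 0.05, Ccng1 (0.60, SE 0.24, adjusted p = 0.274). There both knockout libraries were above wild type in 4 genes (Cdkn1a, Ccng1, Perp and Plk2, against 34.0% of all genes) and below it in Eda2r and Bax (against 42.9%). The median difference of the 10 genes was 0.48 without LIF and -0.04 with LIF, beside medians of -0.02 and -0.04 over all genes tested.

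**Figure D3:**
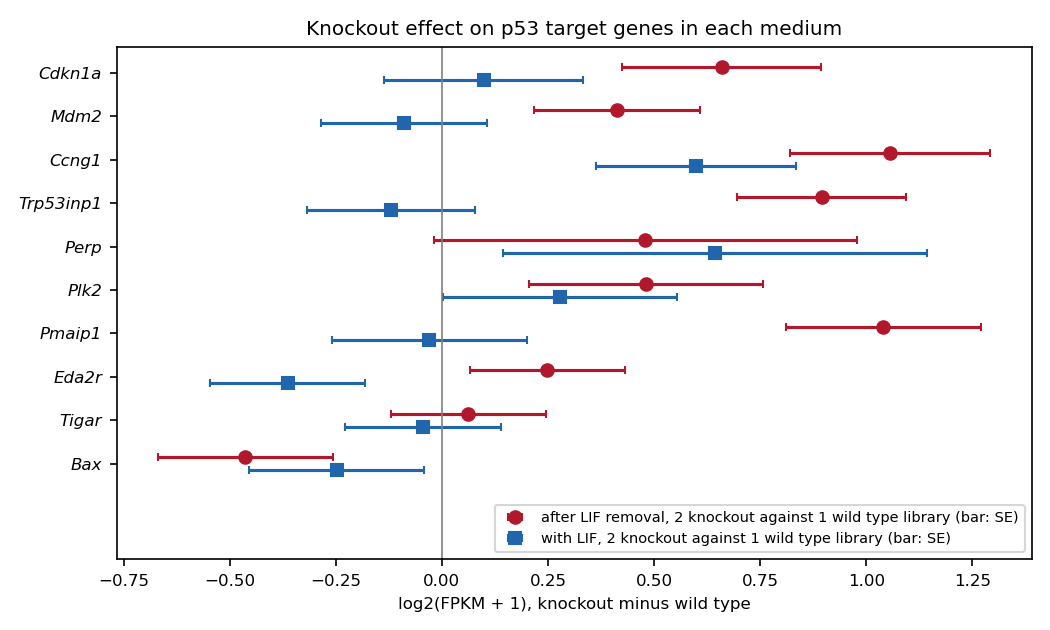
Knockout minus wild type difference in log2(FPKM + 1) (horizontal axis, bars are SE) for each gene (rows), with circles for cells without LIF and squares for cells with LIF, 2 knockout libraries against 1 wild type library in each. Trp53inp1 and Pmaip1 lie near 0 with LIF and near 1 without it, and no value shown passed the threshold.

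Over both media, 1 of the 10 genes, Ccng1, was called, where 5.79% of genes were called higher and 4.67% lower in knockout cells. Ccng1 was higher by 0.83 (SE 0.17, adjusted p = 0.0248). It lies on chromosome 11, whose 1009 tested genes had a median of 0.42 to 0.48 above wild type in the 4 knockout libraries. With each chromosome's median taken away, Ccng1 was 0.38 higher (SE 0.16, adjusted p = 0.205) and no longer called. The call was also lost without knockout library 2 with LIF (0.75, adjusted p = 0.0575), where all genes gave 560 calls in place of 1232. With a wild type library left out, only 1 is left to compare against. Ccng1 was then 0.60 higher without the one after LIF removal and 1.06 higher without the one with LIF. The medians of the other chromosomes that hold these genes lay between -0.15 and 0.17.

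Trp53, the gene of p53 itself, also lies on chromosome 11 (69580359 to 69591873). It was at 281 and 316 FPKM in knockout cells without LIF and 216 in wild type cells without LIF, and at 392 and 428 in knockout cells with LIF and 286 in wild type cells with LIF. Knockout libraries were above wild type in each medium, and within each genotype the libraries without LIF were the lower ones. Trp53 fell by 0.44 on LIF removal (SE 0.09, adjusted p = 0.0157). Trp53 was 0.49 higher in knockout cells over both media (SE 0.10, adjusted p = 0.0231), and 0.04 higher (adjusted p = 0.829) with the chromosome medians taken away.

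Of 10 genes of the p53 family and its regulators, 9 were tested, and Trp63 had too low a level. Trp53 was the only one of the 9 called on LIF removal, where 8.73% of all genes rose and 12.7% fell. Between genotypes 1 of the 9 was called higher and 1 lower, where 5.79% of all genes were called higher and 4.67% lower. Besides Trp53, Chek2, a kinase that activates p53 after DNA breaks, was called between genotypes, lower in knockout cells by 0.78 (log2 difference -0.78, SE 0.12, adjusted p = 0.0111). Chek2 was at 14.8 and 16.1 FPKM in knockout cells without LIF, against 26.0 in wild type cells, and at 15.2 and 15.8 in knockout cells with LIF, against 28.7. Ppm1d, a phosphatase that p53 induces and that switches p53 off again, was at 25.8 and 26.2 in knockout cells without LIF, against 16.7, and at 21.2 and 19.9 with LIF, against 16.4. It missed the threshold between genotypes (0.46, adjusted p = 0.0533) and lies on chromosome 11 as well, and with the chromosome medians taken away it was 0.01 higher (adjusted p = 0.972). Mdm4, the partner of Mdm2, was at 37.4 and 32.4 in knockout cells without LIF, against 35.5, and at 32.6 and 35.6 with LIF, against 52.0. Usp7, Atm, Atr, Chek1 and Trp73 were not called in either comparison.

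Other known p53 targets showed the high level in knockout cells without LIF about as often as all genes did. Of a list of 35, 30 were tested, and 4 of them (Zmat3, Btg2, Polk and Ercc5) had both knockout libraries without LIF above the other 4 libraries, beside 12.5% of all genes. On LIF removal over both genotypes 9 of the 30 rose, where 8.73% of all genes did, and 3 fell, where 12.7% did, with a median of 0.03. The rises with the lowest p were Btg2 (0.998, adjusted p = 0.00480), an antiproliferative gene, Ercc5 (0.74, adjusted p = 0.00574), an excision repair nuclease, Sfn (1.57, adjusted p = 0.00590), a 14-3-3 protein of epithelia, and Apaf1 (0.81, adjusted p = 0.0129), the core of the apoptosome. Gdf15, a stress cytokine, fell by 1.54 (adjusted p = 0.00561), the epoxide hydrolase Ephx1 by 0.63 (adjusted p = 0.0225) and Fdxr, a mitochondrial reductase, by 0.64 (adjusted p = 0.0245). In knockout cells alone 5 of the 30 rose, where 3.05% of all genes did, among them Apaf1 (1.05, adjusted p = 0.0220), the ribosomal protein Rps27l (0.66, adjusted p = 0.0341), Ercc5 (0.81, adjusted p = 0.0343) and Btg2 (0.99, adjusted p = 0.0395), and Gdf15 fell by 1.23 (adjusted p = 0.0420). Between genotypes 0 of the 30 were called higher and 1 lower, where 5.79% of all genes were called higher and 4.67% lower. The called gene, Bbc3 (Puma, a killer protein of the same class as Pmaip1), had a log2 difference of -0.80 (SE 0.16, adjusted p = 0.0210). Bbc3 was at 21.9 and 26.4 FPKM in knockout cells without LIF, against 40.2 in wild type cells, and at 34.3 and 24.5 in knockout cells with LIF, against 54.1. Bbc3 and Pmaip1 therefore stood in opposite order between genotypes without LIF.

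**Figure D4:**
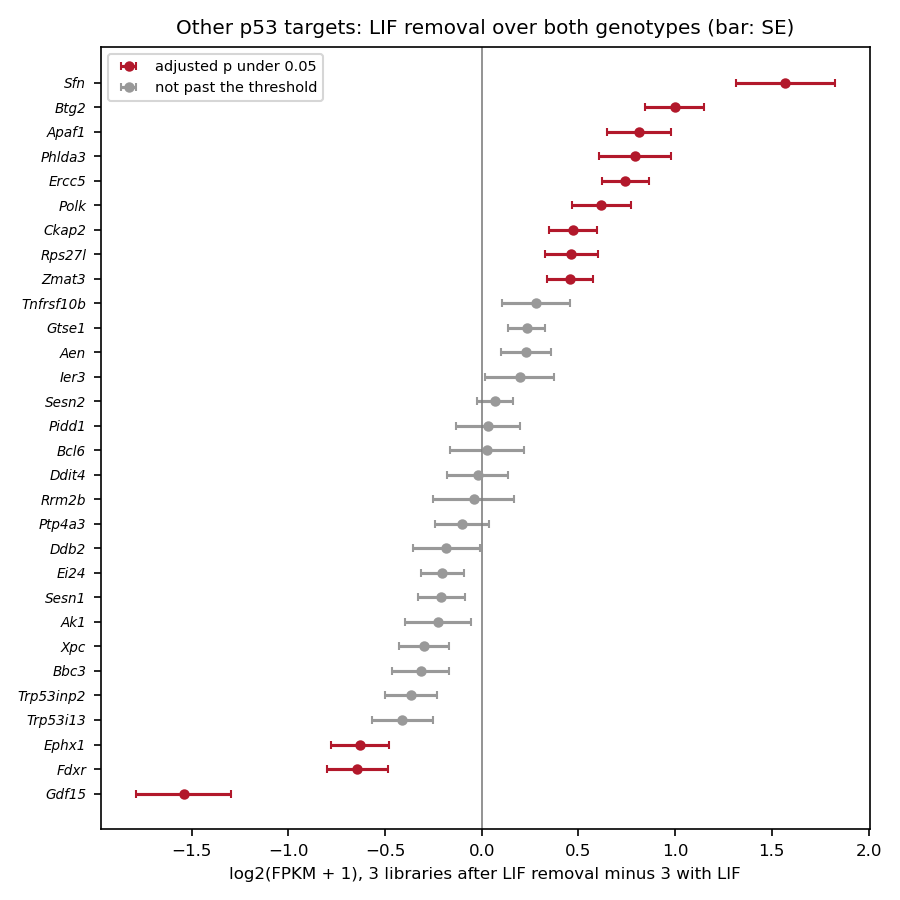
Difference in log2(FPKM + 1) between the 3 libraries without LIF and the 3 with LIF (horizontal axis, bars are SE) for 30 further p53 targets (rows, ordered by value), with genes past the adjusted p threshold in red. The called genes are 9 to the right of 0 and 3 to the left, and the median of the 30 is 0.03.

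Genes known to act with these targets were described in the same way. The shares of all genes called, given above, are 8.73% higher and 12.7% lower on LIF removal and 5.79% higher and 4.67% lower between genotypes. In the BCL2 family, which sets the threshold for Bax and Pmaip1, 11 of 13 were tested, of which 1 rose and 2 fell on LIF removal. Bcl2l11 (Bim) rose by 0.77 on LIF removal (adjusted p = 0.00587), and Bmf fell by 0.91 (adjusted p = 0.00718) and Mcl1, the partner of Pmaip1, by 0.36 (adjusted p = 0.0334). In knockout cells alone Bcl2l11 rose by 0.80 (adjusted p = 0.0399) and Bmf fell by 0.93 (adjusted p = 0.0480). Bmf was also lower in knockout than in wild type cells, by a log2 difference of -0.68 (adjusted p = 0.0412). Of 15 cell cycle genes that p21 is known to silence through the DREAM repressor complex, 1 fell on LIF removal, Mybl2 (-1.31, adjusted p = 0.000923), and their median was -0.08. Mybl2 fell by 1.25 in knockout cells alone (adjusted p = 0.0166). Between genotypes Birc5 (0.71, adjusted p = 0.0112) and Aurkb (0.51, adjusted p = 0.0189) were higher in knockout cells. Both lie on chromosome 11, and with its median taken away they were 0.26 (adjusted p = 0.160) and 0.06 (adjusted p = 0.742) higher. None of the 15 was called lower, but 12 had a genotype difference below 0, with a median of -0.09 against -0.03 over all genes tested. Both knockout libraries were below wild type in 12 of the 15 with LIF (42.9% of all genes) and in 9 without LIF (38.9%). Of 5 tested cell cycle inhibitors besides Cdkn1a, Cdkn1c (-1.60, adjusted p = 0.0128) and Cdkn1b (-0.80, adjusted p = 0.0202) were lower in knockout cells, and Cdkn2d (-0.53, adjusted p = 0.0317) and Cdkn2a (-0.67, adjusted p = 0.0351) fell on LIF removal. None of the 5 had the order of libraries seen for Cdkn1a, an order that only 12.5% of all genes had, so a count of 0 among 5 says little.

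The knockout libraries of a pair were not equal. In 7 of the 10 genes (Mdm2, Ccng1, Trp53inp1, Perp, Plk2, Pmaip1 and Bax) library 2 was above library 1 in both media, as in 31.2% of all genes. Library 2 also had the highest summed level of 4 trophoblast markers in each medium, 13.6 FPKM without LIF and 9.72 with LIF, where the other libraries lay between 3.69 and 7.99. Of those 4 markers 3 were tested. Of the 3, 1 rose on LIF removal, where 8.73% of all genes did, and 1 was higher in knockout cells, where 5.79% were. In both cases this was Hand1, which lies on chromosome 11. The summed level of 4 primitive endoderm markers was 5.30 to 11.4 FPKM without LIF and 1.98 to 4.09 with LIF. Only 2 of them were tested, and 1 of the 2, Dab2, rose on LIF removal (1.57, adjusted p = 0.00693), where 8.73% of all genes did. The summed level of 7 fibroblast markers was 5.60 to 8.36 without LIF and 3.33 to 8.23 with LIF, with Lum and Postn under 0.1 in every library. Knockout library 2 was the highest in each medium for both of these sums as well, but not for each marker. In knockout libraries 1 and 2, Dab2 was at 5.21 and 9.09 FPKM without LIF and 0.900 and 2.32 with LIF. Gata4 went the other way, at 1.92 and 1.56 without LIF and 2.13 and 1.16 with LIF. Gata6 and Sox17 stayed under 1 FPKM. Thy1, the largest part of the fibroblast sum, was at 4.05 and 5.16 without LIF and at 7.01 in both with LIF. In bulk RNA, more cells of a type and more RNA per cell cannot be told apart, and the part of such cells in the levels given here was not tested.

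Genes with profiles most like those of Cdkn1a, Mdm2 and Perp were sought among 8295 others with a mean of at least 5 FPKM, by the root mean square difference of centred log2(FPKM + 1) values over the 6 libraries. Nearest to Cdkn1a were Anapc13 (difference 0.09) and Slc4a11 (0.10). Nearest to Mdm2 were Tmem138 (0.05) and Cd63 (0.06). Nearest to Perp were Anxa3 (0.20) and Car4 (0.20). Cd63 was at 73.3 and 86.0 FPKM in knockout cells without LIF and 59.2 in wild type cells without LIF, and at 47.6 and 66.0 in knockout cells with LIF and 56.2 in wild type cells with LIF. With 6 libraries in 4 groups, a close profile is a description of these values.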

How the data were processed

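The authors deposited 1 table of FPKM per gene symbol and library, made with STAR and Cufflinks on mm10, per the submitters' processing notes. Their versions, settings and gene models are not given. From libraries of 150 bp paired-end reads, per the labels' protocols, no read counts were used, so depth is unknown and no counting interval is given. The deposited values entered unscaled as log2(FPKM + 1), a scale that understates changes of low genes. The 11785 genes whose mean reached 1 FPKM were tested across all genes with limma 3.58.1 in R 4.3.3 (empirical Bayes with intensity trend, two-sided, Benjamini-Hochberg). Effects over both media or genotypes came from an additive fit (3 residual degrees of freedom) and the others from a fit of 4 groups (2 residual), in which a lone wild type library is assumed to vary like the knockout pairs. The scripts were tested on simulated data. Positions are from GENCODE M21. The genes, the lists and the comparisons were chosen with earlier results of these data known. Named are the 10 genes, Hnrnpf, the p53 family and regulators, of each other list up to 4 called genes with the lowest p per direction and comparison, and the 2 nearest profiles of Cdkn1a, Mdm2 and Perp; marker genes and those counted by library order were named after their values were seen. Fits with another pseudocount, filter, scaling, chromosome-median centring, no trend, a replicate block or a library left out were the alternatives.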

Additional observations from a re-analysis of the deposited data

Results flagged for a closer look

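Eda2r was singled out because its knockout effect went opposite ways in the media. Both knockout libraries were above wild type after LIF removal (28.2 and 32.6 FPKM, against 25.4) and both below it with LIF (18.8 and 17.6 FPKM, against 23.7). The difference of the effects in log2(FPKM + 1), 0.61 with an SE of 0.26, did not pass with limma. Eda2r lies on the X chromosome, and the medians of its 416 tested genes also changed sign. In knockout libraries 1 and 2 they were 0.083 and 0.061 after LIF removal and -0.053 and -0.029 with LIF. The Eda2r differences were 0.25 and -0.36. A link between them was not tested.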

How the results depend on the processing

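Over both genotypes, 14 alternatives kept the direction of all 10 LIF removal effects, and Perp, Plk2, Ccng1 and Tigar stayed called in each. Quantile normalization gave 8 calls (2331 over all genes) and chromosome-median centring 7 (2627). There were 4 without a filter on low values (1827) and 5 without the trend (2262). The 6 calls (2523 over all genes) became 10 with the replicate block (3516) and 4 to 7 with a library left out (817 to 1924). In knockout cells the 7 calls (816 over all genes) became 10 with the replicate block (2621), which added Cdkn1a, Mdm2 and Bax, 0 without a filter on low values (also 0 of all genes) and 0 to 7 with a library left out. The knockout numbers are not stated to mark clones. The difference between numbers correlated across genes between media (r = 0.366), which is a hint from the data and not the design. For other p53 targets the 12 calls on LIF removal became 5 without a filter and 5 to 7 with a library left out. The single call between genotypes, Ccng1 (1232 over all genes), became 0 without a filter (335), with chromosome-median centring (723) or without the trend (898). With a knockout library left out it became 0 to 1 (560 to 994). The single call among other targets, Bbc3, became 0 without a filter and 2 without the trend. It stayed 1 with a knockout library left out. Leaving out a wild type library leaves 1 of that genotype, so no count is given. No member was called within a medium, or for the difference of responses, in any alternative. Of the 9 uncalled genotype effects over both media, 5 changed sign in some alternative, and those of Cdkn1a, Perp, Plk2 and Bax in none. With a library left out they ran from -0.089 to 0.41 for Mdm2, -0.12 to 0.89 for Trp53inp1 and -0.030 to 1.04 for Pmaip1, each negative without wild type after LIF removal and highest without wild type with LIF, where a single medium is left to compare. They ran from -0.36 to 0.25 for Eda2r (0.0049 without knockout library 2 with LIF) and from -0.044 to 0.062 for Tigar (-0.036 and -0.0031 without knockout library 1 after LIF removal and with LIF). Tigar was at -0.15 with chromosome-median centring. The causes were not tested. The count of 8 genes with both knockout libraries on top without LIF was also 8 under quantile, median ratio and chromosome-median scaling, alternatives chosen after the data were seen. The lone wild type library per medium limits every genotype value.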
